A study of Mus musculus with 12 samples.

Results

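The genes for the proteins of the cytosolic ribosome were followed in CD11b-positive cells of the mouse cerebral cortex. They were taken as all protein-coding genes of the GRCm38 annotation whose symbol starts with Rpl or Rps and a number, or is Rplp0, Rplp1 or Rplp2, with the kinases named Rps6k left out. This gave 91 of the 55487 genes of the count table, and 85 of them had at least 10 counts in at least 3 of the 12 libraries and were analysed further. The 85 were 30 proteins of the small subunit, 43 of the large subunit, 3 of the stalk of the large subunit, 6 of 8 paralogs named after another member, 2 of 6 genes whose symbol marks them as a pseudogene although the annotation lists them as protein-coding, and Rps19bp1. Rps19bp1 is a protein that binds Rps19 and is no ribosomal protein itself. The first 3 kinds are called the 76 core genes.

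Cells were collected from male mice with magnetic beads against CD11b, which microglia and further cells of myeloid origin carry on their surface, after the cortex had been digested with papain. In App NL-G-F mice, the App gene carries by knock-in a humanized amyloid-β sequence and the Swedish, Iberian and Arctic mutations of familial Alzheimer's disease. WT mice carry none of these. From 9 months of age, mice of both genotypes received either PBS (the vehicle, veh) or 10 mg/kg recombinant human (rh) Bri2 BRICHOS R221E, a mutated chaperone domain taken from Bri2, into a vein 2 times a week. The 24 injections were spread over 12 weeks, and 4 weeks without treatment followed. The 4 groups were thus WT and App NL-G-F mice given PBS, and the same genotypes given the BRICHOS protein, which are called treated. Each group had 3 mice with a library each, so p-values measure the spread between mice. The libraries held between 12433402 and 17889654 counts. Only males of a single starting age were sampled, and the knock-in gene is carried by every cell of the mouse.

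Ribosomal proteins assemble with ribosomal RNA into the small subunit, which decodes the mRNA, and the large subunit, which joins the amino acids, and they are needed in nearly equal amounts. Most of their mRNAs start with a run of pyrimidines, the terminal oligopyrimidine tract, through which mTOR signalling and the RNA-binding protein Larp1 set how strongly they are translated. Microglia, the resident macrophages of the brain, make these mRNAs in all states, so the genes were compared by level and not by presence.

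A start window of 50 bases to either side of the annotated transcription start was found in RefSeq (GRCm38.p6) for 63 of the 85 genes. The letters CTTTC, which can occur in such a tract, were searched on both strands. Anywhere in the window, they were on the strand of the gene in 28 of the 56 core genes with a window (50%) and in 12.6% of the 27025 windows of all genes in the table. On the other strand the shares were 10.7% and 11.8%. Of the 2299 other genes with a window that were higher in App NL-G-F than in WT mice under PBS, 10.4% held the letters on their own strand. Within 15 bases of the start, the letters lay in 15 of the 56 core genes, and this share was not computed for all genes. The stretches printed here cover the end of the upstream flank and the start of the first exon, with CTTTC in capitals. They run from 15 bases before to 15 bases from the annotated start. Core genes of both subunits with the letters are shown, with Rps6 as a core gene without them, and 3 paralogs that are compared with their parents. The annotated start can lie some bases away from the one used in these cells.
Rps27, small subunit, chr3:90213634-90213663, minus strand: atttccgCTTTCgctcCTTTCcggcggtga
Rpl38, large subunit, chr11:114668565-114668594, plus strand: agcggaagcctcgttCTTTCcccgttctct
Rplp2, stalk, chr7:141447636-141447665, plus strand: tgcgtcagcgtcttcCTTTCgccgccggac
Rps6, small subunit, chr4:86857353-86857382, minus strand: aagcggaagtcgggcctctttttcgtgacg
Rps27rt, paralog, chr9:114982725-114982754, minus strand: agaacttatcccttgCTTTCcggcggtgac
Rps27l, paralog, chr9:66946071-66946100, plus strand: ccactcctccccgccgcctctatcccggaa
Rpl7l1, paralog, chr17:46782642-46782671, minus strand: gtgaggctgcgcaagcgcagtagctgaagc
Rps27 and Rps27rt share an unbroken run of 38 bases in the first 50 bases after their starts, so reads of both genes can be hard to tell apart and the values of Rps27rt are uncertain.

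Levels are given as CPM, the count of a gene relative to the size of its library, where library sizes were scaled with TMM factors, which set the libraries to a common level over most genes. Divided by the length of the mRNA in kilobases, the highest mean level over the 12 libraries was 1902 CPM per kb for Rplp1, an acidic protein of the stalk, followed by 1149 CPM per kb for Rps27 and 1091 CPM per kb for Rps9. The median of the 76 core genes was 394 CPM per kb, and 73 of them lay at 47.9 CPM per kb or more. The other 3 were Rps10 (9.77 CPM per kb), Rpl24 (14.5 CPM per kb) and Rpl13a (28.1 CPM per kb). Each of the 3 overlaps a gene model on the same strand (RPS10-NUDT3, Gm28037 and Gm45713), and all 3 models are listed at 0 counts in the 12 libraries. How reads in such overlaps were counted is not given in the sources used here, so the levels and changes of Rps10, Rpl24 and Rpl13a are uncertain. The lowest of the 85 were Rpl9-ps1 (0.994 CPM per kb), Rpl39l (1.49 CPM per kb) and Rpl9-ps6 (2.24 CPM per kb). Rpl9-ps1, with at least 10 counts in 5 libraries, lay just inside the minimum, and Rpl10-ps3, with 10 counts in 1 library, lay just outside it. Rpl10l, a copy of Rpl10 used in the testis, had 0 counts in every library, which allows at most 0.241 CPM in the smallest of them. Rpl3l, the muscle form of Rpl3, reached at most 0.115 CPM, below the level of 3 counts.

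The first question was how the knock-in genotype bears on these genes without treatment. In App NL-G-F mice given PBS, 76 of the 85 genes were higher than in PBS-treated WT mice and 1 was lower (edgeR quasi-likelihood test, adjusted p under 0.05), against 20.1% of all 15425 tested genes called higher and 16.9% called lower. The median log2 fold change of the 85 genes was 0.63, a factor of 1.55, beside −0.02 over all tested genes. In 76 genes every App NL-G-F library lay above every WT library, which held for 25.5% of all tested genes. In bulk RNA, more of a cell type and more RNA per cell cannot be told apart, so each level is that of the whole bead-selected sample.

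Summed, the 30 small-subunit genes took 0.895%, 0.955% and 0.847% of the counts in the PBS-treated WT libraries and 1.29%, 1.29% and 1.07% in the PBS-treated App NL-G-F libraries. The 43 large-subunit genes took 1.06%, 1.12% and 1.003% in the first and 1.59%, 1.57% and 1.33% in the second. Neither subunit's shares overlapped between the genotypes, and replicate 3 of the App NL-G-F mice was the lowest of its group in both. The median log2 fold changes were 0.62 for the small subunit, with 29 of 30 genes higher, 0.67 for the large subunit, with 42 of 43 higher, and 0.74 for the stalk, with 3 of 3 higher. Mitochondrial ribosomal proteins, which are encoded in the nucleus and build the separate ribosome of mitochondria, together took 0.131% ± 0.0016 (SD, n = 3) of the counts in PBS-treated WT and 0.131% ± 0.0074 in App NL-G-F mice given PBS. These shares are of total counts, and with TMM scaling the same genes had a median log2 fold change of 0.18, with 23 of 77 called higher and 1 lower.

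**Figure D1:**
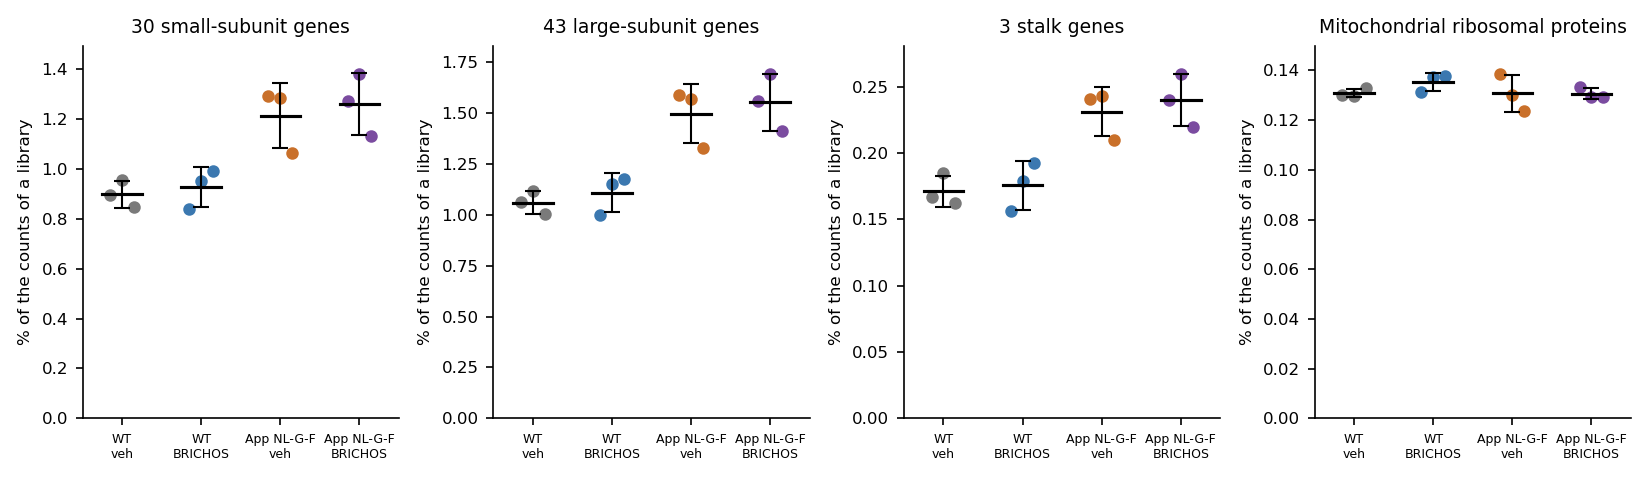
Percentage of a library's counts taken by small-subunit, large-subunit, stalk and mitochondrial ribosomal protein genes (y axes from 0) in the 4 groups (x axes). Points are mice, horizontal lines means and whiskers SD (n = 3). All App NL-G-F points lie above all WT points for the cytosolic ribosome, for example 1.07% to 1.38% against 0.840% to 0.991% for the small subunit, while the mitochondrial ribosomal proteins lie between 0.124% and 0.138% of total counts in all mice, against a median log2 fold change of 0.18 with TMM scaling under PBS.

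Among the stalk proteins, Rplp0 is the base on which Rplp1 and Rplp2 sit and with them recruits the elongation factors. Rplp0 was at 521, 593 and 516 CPM in PBS-treated WT and at 903, 956 and 865 CPM in App NL-G-F mice given PBS. The groups lay far apart, with a log2 fold change of 0.74 ± 0.089 (SE, edgeR adjusted p = 5.6e-05). Rplp1 was at 754, 868 and 717 CPM against 1135, 1160 and 983 CPM, a smaller log2 fold change of 0.49 ± 0.116 (edgeR adjusted p = 0.00659), and Rplp2 rose by 0.74 ± 0.130 (edgeR adjusted p = 0.000967).

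The largest log2 fold changes of the 85 genes were those of Rpl41 (0.998 ± 0.130), Rps28 (0.96 ± 0.167), Rpl23 (0.91 ± 0.116) and Rpl10a (0.91 ± 0.0698). Rpl41, the smallest protein of the large subunit, was at 189, 211 and 176 CPM in PBS-treated WT and at 408, 410 and 331 CPM in App NL-G-F mice given PBS. Rpl10a, which lies beside the exit of the tRNA, was at 152, 158 and 151 CPM against 305, 298 and 265 CPM. The spread within groups was small beside the difference for both, and Rpl10a had the lowest p of the 85 (edgeR adjusted p = 1.61e-06). Rpl5 and Rpl11, which bind the ubiquitin ligase Mdm2 when ribosome assembly is disturbed, rose by 0.80 ± 0.0969 and 0.69 ± 0.126. Rpl10, a late-joining protein at the catalytic centre, rose by 0.65 ± 0.0879, Rpl3, which lies close to that centre, by 0.61 ± 0.0983, and Rpl38 by 0.84 ± 0.137. In the small subunit, Rps6, the phosphorylation target of the S6 kinases, was at 192, 216 and 179 CPM against 296, 304 and 265 CPM, a log2 fold change of 0.56 ± 0.0988 (edgeR adjusted p = 0.00102). Rps19, mutated in Diamond-Blackfan anaemia, rose by 0.75 ± 0.101 and Rps3, at the mRNA entry channel, by 0.53 ± 0.102.

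The smallest rises that passed the test were those of Rpl13a (0.35 ± 0.0979), Rps9 (0.43 ± 0.103) and Rplp1. Rpl13a was at 23.7, 28.5 and 25.5 CPM in PBS-treated WT and at 33.8, 34.6 and 30.9 CPM in App NL-G-F mice given PBS, with groups that did not overlap. Its call was lost without replicate 2 of the App NL-G-F mice (edgeR adjusted p = 0.0547) or replicate 1 of the WT mice (edgeR adjusted p = 0.0626). With total counts alone as scaling, the calls of Rpl13a (0.16, edgeR adjusted p = 0.157) and Rps9 (0.24, edgeR adjusted p = 0.0533) were lost. Of the 76 core genes, those not called were Rps10 (log2 fold change −0.13 ± 0.230) and Rpl24 (0.21 ± 0.167), both among the 3 with an overlapping gene model. The SD of the log2 fold change over the 76 core genes was 0.16, against 0.84 over all tested genes. Over the 76 genes, which share all libraries, Spearman's rho between log2 fold change and mRNA length was −0.16.

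**Figure D2:**
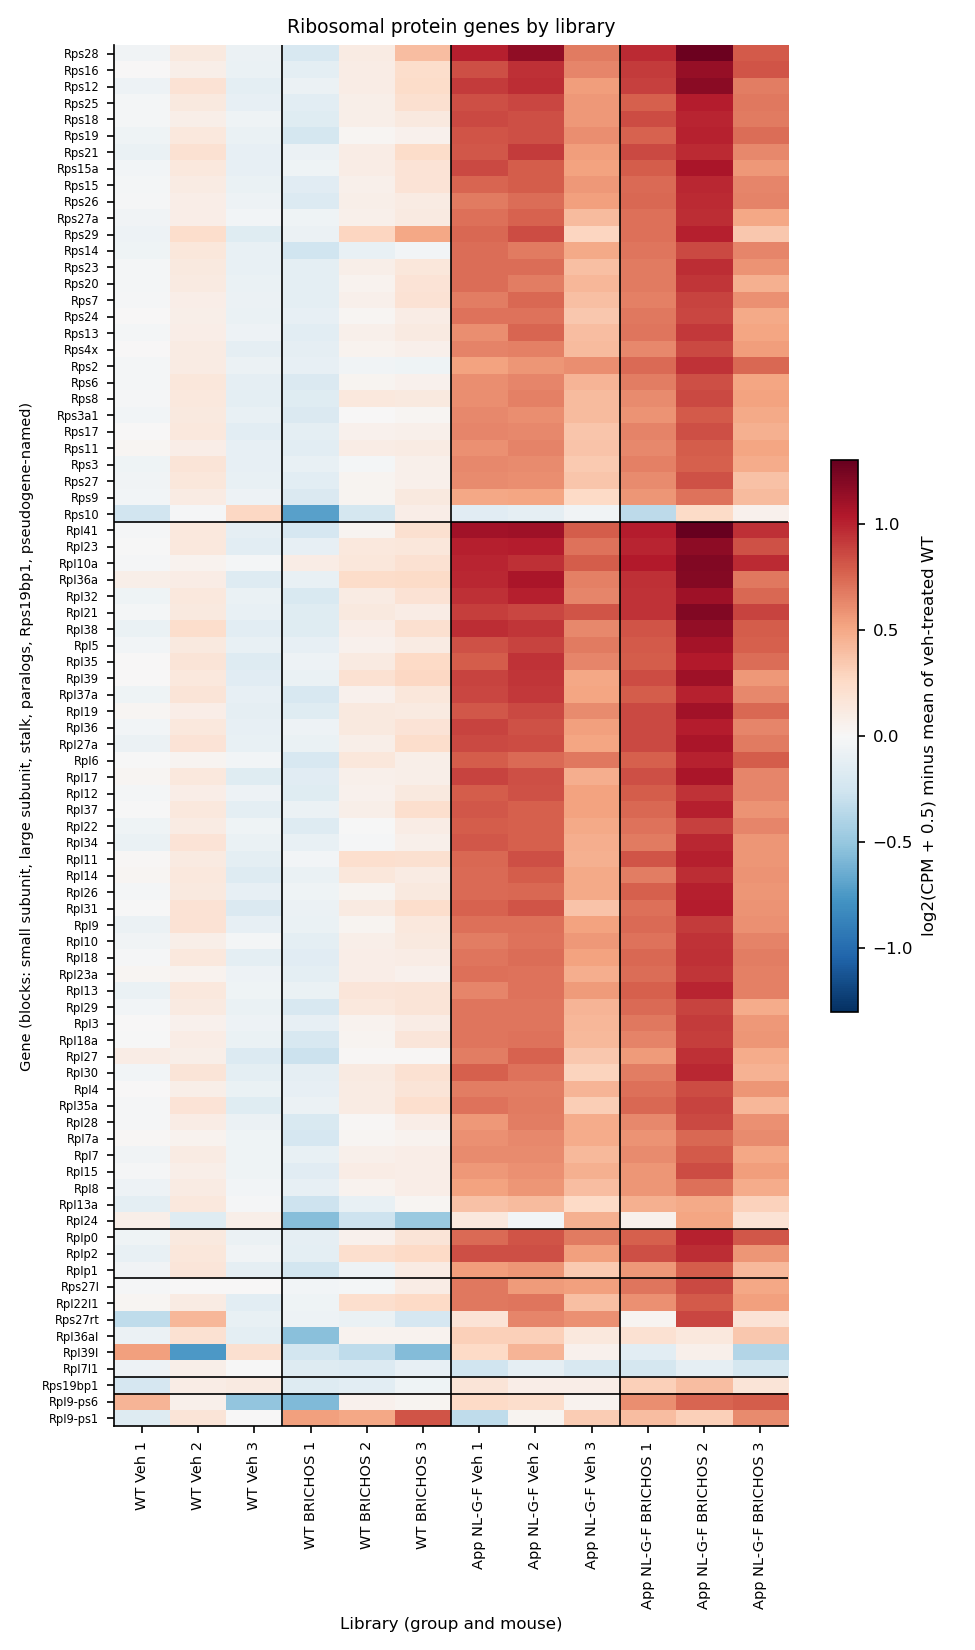
Level of the genes reported here (rows, in blocks by kind) in the 12 libraries (columns), as log2(CPM + 0.5) minus the mean of the PBS-treated WT libraries, with red for higher and blue for lower. The 6 App NL-G-F columns are red across nearly all core genes, with replicate 3 of either App NL-G-F group paler than the others, while Rps10, Rpl24, Rpl7l1, Rps19bp1 and the rare paralogs depart from the pattern.

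The same genotype comparison in mice given rh Bri2 BRICHOS R221E had its own libraries in both groups. There 78 of the 85 genes were higher in App NL-G-F mice and 0 lower (edgeR adjusted p under 0.05, with 79 higher and 0 lower at an unadjusted p under 0.05), beside 20.8% of all tested genes called higher and 21.8% called lower. The median log2 fold change was 0.72, a factor of 1.65, beside −0.04 over all tested genes, and in 80 genes the App NL-G-F libraries lay above all WT libraries, which held for 25.3% of all tested genes. By kind, 28 of 30 small-subunit genes (median 0.70), 43 of 43 large-subunit genes (median 0.75) and 3 of 3 stalk genes (median 0.67) were higher. Rplp0 was at 502, 564 and 609 CPM in treated WT and at 930, 1087 and 949 CPM in treated App NL-G-F mice, a log2 fold change of 0.82 ± 0.0888 (edgeR adjusted p = 2.27e-05). The groups were again apart in every mouse. The largest changes included 1.10 ± 0.330 for Rpl9-ps6, a rare gene at 0.693 to 2.57 CPM in the 6 libraries, 1.08 ± 0.130 for Rpl41 and 0.98 ± 0.0987 for Rpl21. Rpl9-ps6 is named as a pseudogene of Rpl9, with which it may share reads, and its values are uncertain for that reason. Its call was lost without replicate 3 of the App NL-G-F mice (edgeR adjusted p = 0.0509) or replicate 1 of the WT mice (edgeR adjusted p = 0.0637). The smallest rises that passed were 0.44 ± 0.119 for Rps19bp1, 0.51 ± 0.115 for Rpl22l1, 0.54 ± 0.0977 for Rpl13a and 0.57 ± 0.103 for Rps9. With total counts alone as scaling, the calls of Rps19bp1 (0.17, edgeR adjusted p = 0.233), Rpl22l1 (0.23, edgeR adjusted p = 0.0831) and Rpl9-ps6 (0.83, edgeR adjusted p = 0.0511) were lost. Rps29 was at 262, 336 and 392 CPM against 454, 556 and 353 CPM, so that replicate 3 of the App NL-G-F mice lay inside the WT range (log2 fold change 0.46 ± 0.198, edgeR adjusted p = 0.0818).

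**Figure D3:**
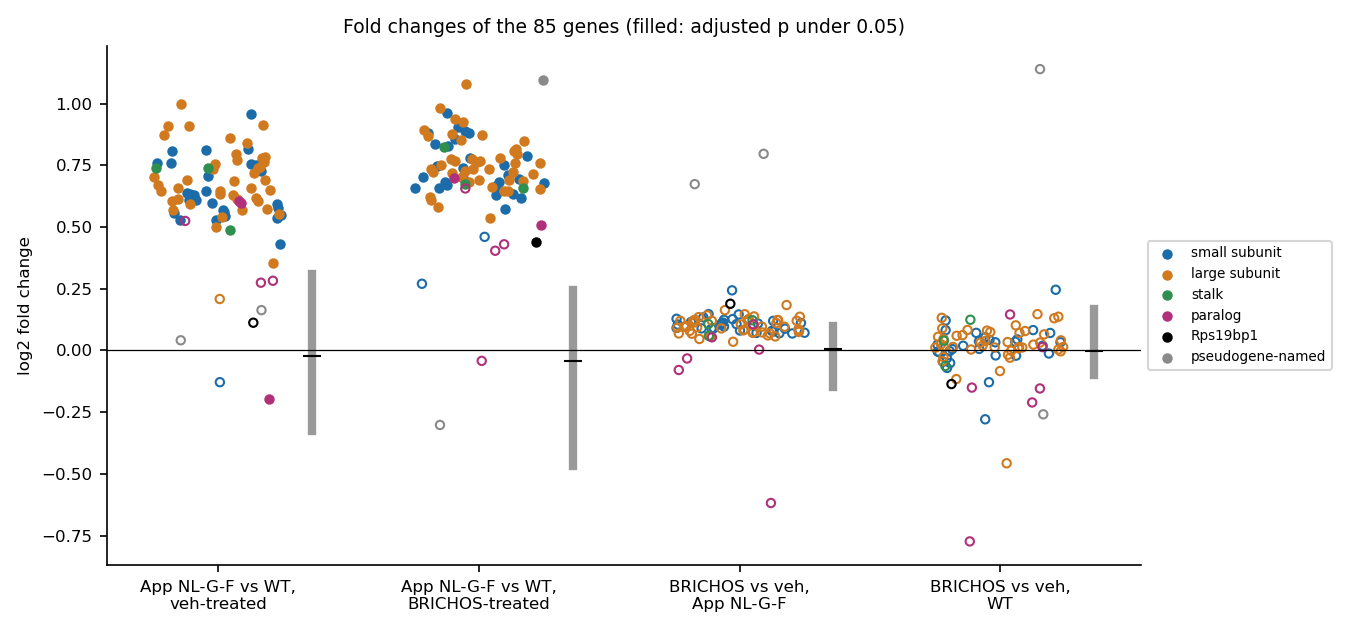
Log2 fold change (y axis) of the 85 genes in the genotype comparison of PBS-treated and of treated mice and in the treatment comparison within App NL-G-F and within WT mice (x axis). Points are genes coloured by kind, filled where the adjusted p is under 0.05, and the grey bar with a tick gives the quartiles and median of all tested genes. The medians of the 85 genes are 0.63 and 0.72 in the genotype comparisons, where most points are filled, and 0.10 and 0.02 in the treatment comparisons, where all are open.

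Several other measures moved with genotype in these libraries. Markers of microglia, which were the most abundant of the lists examined, had a mean log2 CPM of 10.9 to 11.1 in the 6 WT and 10.5 to 10.7 in the 6 App NL-G-F libraries. Of the 7 markers, 5 were called lower and 1 higher with genotype in PBS-treated mice, and 4 lower and 1 higher in treated mice. Their summed level overlapped in treated mice, at 23530 to 24760 CPM in WT and 23010 to 24500 CPM in App NL-G-F libraries. The 8 astrocyte markers had 5.28 to 6.23 in WT, 6.93 to 8.52 in PBS-treated App NL-G-F and 5.70 to 7.30 in treated App NL-G-F libraries, and their summed level was 468 to 897, 1507 to 4810 and 689 to 2015 CPM in the same order. All 8 were higher with genotype in PBS-treated and 1 of 8 in treated mice. With the astrocyte score as a covariate, 11 of the 85 genes were called higher in PBS-treated mice (median 0.52, median SE 0.206 beside 0.113 without the score, 82 of 85 positive) and 79 in treated mice (median 0.70). The lowest astrocyte score of both App NL-G-F groups, 5.70 in a treated mouse, lay inside the WT range. That mouse had the highest median level of the 85 genes of all libraries, 0.59 above the gene means (log2). In each other group, the mouse with the lowest astrocyte score had the lowest median level of its group. Score and level were 6.93 and 0.12 in PBS-treated App NL-G-F, 5.29 and −0.44 in PBS-treated WT, and 5.28 and −0.48 in treated WT mice. Summed border macrophage markers fell from 299 to 354 CPM in PBS-treated WT to 126 to 170 CPM in App NL-G-F mice given PBS, with 5 of 5 genes called lower. Oligodendrocyte markers went from 9409 to 16580 CPM to 2975 to 5367 CPM, with 2 of 6 called lower, and neutrophil markers from 31.4 to 348 CPM to 12.4 to 32.9 CPM, with 5 of 5 called lower. Neuron markers, with 5 of 8 called lower, and endothelial markers, with 4 of 5, had negative medians too, and mural, choroid plexus, ependymal and B cell markers had 1 of 5, 0 of 5, 0 of 4 and 1 of 4 called lower, and all 5, 5, 4 and 4 in treated mice. No marker of the lists named so far was at 0 counts in a whole group. T cell markers summed to at most 0.591 CPM in any library, with 1 of 4 at 0 counts in PBS-treated WT and 1 of 4 in treated App NL-G-F mice. In PBS-treated mice the astrocyte score did not overlap between the genotypes, at 5.29 to 5.74 in WT and 6.93 to 8.52 in App NL-G-F libraries. The fit with this score therefore cannot tell score and genotype apart there. Beyond that fit, the part of these cells in the result was not tested.

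The mRNAs of the 85 genes are short, with a median of 729 bases against 2893 bases for the other tested protein-coding genes. The 1707 other protein-coding genes under 1334 bases had a median level of −0.13 to −0.02 in the 6 WT and of 0.04 to 0.15 in the 6 App NL-G-F libraries relative to the gene means (log2), and the 85 genes of −0.48 to −0.23 and of 0.12 to 0.59. Relative to tested protein-coding genes in the same decile of mRNA length, the median log2 fold change of the 85 genes was 0.46 in PBS-treated and 0.57 in treated mice, and 80 and 83 of the 85 lay above the median of their decile.

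Within a group, the 85 genes moved up and down together. In PBS-treated WT mice 22, 82 and 6 of the 85 genes lay above their group mean in replicates 1, 2 and 3, and in treated WT mice 2, 77 and 82. In App NL-G-F mice given PBS the numbers were 77, 81 and 5, and in treated App NL-G-F mice 21, 83 and 4. The genes are therefore not independent readings of a condition, and a common sign over the 85 can come from 1 mouse.

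The effect of rh Bri2 BRICHOS R221E was examined within each genotype. In App NL-G-F mice 0 of the 85 genes were called higher or lower (edgeR, lowest adjusted p = 0.291), as were 0% and 0.00648% of all tested genes. At an unadjusted p under 0.05, 2 were higher and 0 lower, with 3.18% and 7.67% of all tested genes. The median log2 fold change was 0.10 (median SE 0.112) beside 0.01 over all tested genes, and 82 of 85 were positive. Without replicate 2 of the treated App NL-G-F mice the median was 0.02 with 50 of 85 positive, and without replicate 3 of the App NL-G-F mice given PBS it was 0.02 with 57 positive. Astrocyte markers had a median log2 fold change of −1.40 between the same groups with 0 of 8 called, and with their score as a covariate the median was 0.18 with 0 of the 85 called.

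In WT mice 0 of the 85 were called in either direction (edgeR, lowest adjusted p = 0.316), where 0% of all tested genes were called higher and 0% lower. At an unadjusted p under 0.05, 1 was higher and 2 were lower, with 6.55% and 4.83% of all tested genes. The median log2 fold change was 0.02, and leaving out single libraries moved it between −0.03 and 0.09. Between the genotypes, the difference in treatment effect called 0 of the 85 (edgeR, lowest adjusted p = 0.191), beside 0% of all tested genes higher and 0.00648% lower. At an unadjusted p under 0.05, 2 were higher and 0 lower, with 5.23% and 9.54% of all tested genes.

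The lowest p with treatment belonged to Rps2, a protein of the small subunit near the mRNA entry. In App NL-G-F mice it was at 415, 430 and 438 CPM after PBS and at 481, 554 and 484 CPM after treatment. In WT mice the values were 282, 309 and 274 CPM against 268, 278 and 278 CPM. The App NL-G-F groups did not overlap and the WT groups did. The log2 fold change was 0.24 ± 0.0646 in App NL-G-F mice (edgeR adjusted p = 0.291) and −0.07 ± 0.0648 in WT mice, and their difference was 0.31 ± 0.0915 (edgeR adjusted p = 0.191). Rpl10a had 0.16 ± 0.0689 in App NL-G-F mice (edgeR adjusted p = 0.422) and 0.15 ± 0.0694 in WT mice. In WT mice the lowest p belonged to Rpl9-ps1, at 0.274, 0.475 and 0.373 against 0.756, 0.732 and 1.03 CPM (edgeR adjusted p = 0.316), whose counts were few. Rpl24 was at 10.1, 8.54 and 10.1 against 6.36, 7.83 and 6.70 CPM there (edgeR adjusted p = 0.348) and belongs to the genes with an overlapping model.

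Of the 6 paralogs, 2 were higher and 1 lower in App NL-G-F than in WT mice under PBS, and 2 were higher in treated mice. Rpl7l1, a protein of early large-subunit assembly rather than of the finished ribosome, was at 75.5, 83.6 and 78.8 CPM in PBS-treated WT and at 66.1, 72.9 and 68.8 CPM in App NL-G-F mice given PBS. The 3 App NL-G-F values lay below the 3 WT values, and Rpl7l1 was the 1 gene of the 85 called lower (log2 fold change −0.20 ± 0.0578, edgeR adjusted p = 0.02). Its parent Rpl7 went from 434, 481 and 429 to 683, 686 and 600 CPM (log2 fold change 0.55 ± 0.0866). The level of Rpl7l1 was 17.7% ± 0.559 (SD, n = 3) of that of Rpl7 in PBS-treated WT, 15.8% ± 0.946 in treated WT, 10.6% ± 0.895 in PBS-treated and 9.96% ± 0.633 in treated App NL-G-F mice, in CPM without division by length. In treated mice Rpl7l1 was not called (−0.04 ± 0.0578, edgeR adjusted p = 0.585), where treated WT mice had 70.6, 70.2 and 73.7 CPM and treated App NL-G-F mice 67.5, 73.1 and 67.7 CPM. The call in PBS-treated mice was lost without replicate 1 or replicate 3 of the App NL-G-F mice or replicate 2 of the WT mice, with edgeR adjusted p of 0.107, 0.0508 and 0.0868.

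Rpl22l1, which can take the place of Rpl22 in the ribosome, rose with it. It was at 26.8, 28.2 and 23.9 CPM in PBS-treated WT and at 42.4, 42.6 and 34.5 CPM in App NL-G-F mice given PBS (log2 fold change 0.60 ± 0.116, edgeR adjusted p = 0.00191), where Rpl22 rose by 0.69 ± 0.0987. Rps27l, a target of p53 that is close to Rps27 in sequence, went from 18.6, 18.9 and 18.9 to 30.6, 27.8 and 27.4 CPM (log2 fold change 0.61 ± 0.093, edgeR adjusted p = 0.000381), and Rps27 rose by 0.53 ± 0.114. The level of Rps27l stayed between 5.34% and 6.70% of that of Rps27 in all 12 libraries. Rps27rt, Rpl36al and Rpl39l were not called in either genotype comparison. Rpl36al was at 1.89 to 3.93 CPM, between 1.57% and 3.54% of Rpl36a, and shares bases with the model Gm49383, listed at 0 to 3 counts. Rpl39l was at 0.297 to 1.44 CPM and the retrogene Rps27rt at 1.44 to 3.97 CPM, and at these counts the SE of the log2 fold change was 0.455 and 0.314. Rps19bp1 was at 7.40, 9.31 and 9.46 against 9.78, 9.26 and 9.26 CPM in PBS-treated mice, with overlapping groups (0.11 ± 0.12).

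**Figure D4:**
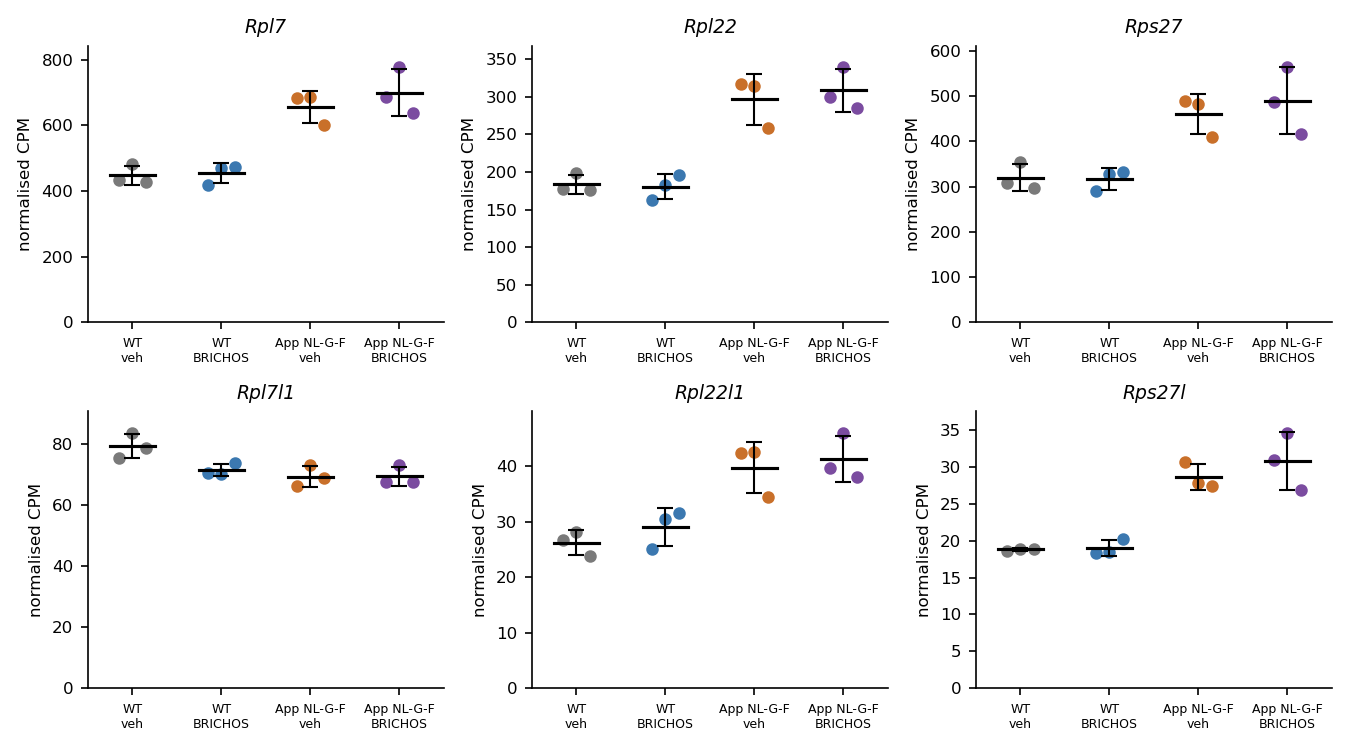
Normalised CPM (y axes from 0) of Rpl7, Rpl22 and Rps27 (upper row) and of their paralogs Rpl7l1, Rpl22l1 and Rps27l (lower row) in the 4 groups (x axes), with points for mice, lines for means and whiskers for SD (n = 3). Rpl22l1 and Rps27l are higher in App NL-G-F mice like their parents, whereas Rpl7l1 is at 66.1 to 73.1 CPM in App NL-G-F and 70.2 to 83.6 CPM in WT mice.

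Ribosomal proteins whose symbols do not follow the pattern were compared as well. Rpsa, a small-subunit protein also known as the laminin receptor, was at 348, 388 and 343 CPM in PBS-treated WT and at 645, 653 and 585 CPM in App NL-G-F mice given PBS, without overlap, and rose by 0.80. Fau, the precursor of a small-subunit protein fused to a ubiquitin-like protein, rose by 0.72 and Rack1, the scaffold protein at the head of the small subunit, by 0.74. In treated mice Rpsa, Fau and Rack1 rose by 0.92, 0.85 and 0.82.

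Counts of called genes in the lists that follow are to be read against all tested genes, of which 20.1% were called higher and 16.9% lower in PBS-treated mice and 20.8% and 21.8% in treated mice. All 6 elongation factors tested were higher in App NL-G-F mice in both genotype comparisons, with medians of 0.62 in PBS-treated and 0.73 in treated mice. Eef1a1, which brings the aminoacyl-tRNA to the ribosome, was at 4032 ± 178 CPM (SD, n = 3) in PBS-treated WT and 6853 ± 493 CPM in App NL-G-F mice given PBS, and Eef2, which moves the ribosome along the mRNA, at 1583 ± 55.1 and 2453 ± 169 CPM. Of 36 initiation factors 12 were higher and 1 lower in PBS-treated mice (median 0.14), and 19 higher and 0 lower in treated mice (median 0.24). Among the 12 were 10 of the 13 subunits of eIF3, the complex that holds the small subunit during initiation, for example Eif3k (0.74) and Eif3h (0.65), and also Eif4b (0.74), a helper of the helicase eIF4A. The subunits of eIF3 were picked out after their values had been seen. Eif4g2, an eIF4G relative that does not bind the cap-binding protein, was the 1 that was lower (−0.18).

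Ribosome assembly factors were mostly not called in PBS-treated mice, with 6 of 50 higher, 3 lower and a median of 0.00, and 19 higher and 1 lower in treated mice, with a median of 0.13. Npm1, a histone and ribosome chaperone of the nucleolus, had the largest rise in PBS-treated mice (0.66), and Nop2, an RNA methyltransferase of the nucleolus, the largest fall (−0.35). Of 14 genes of the RNA polymerase I machinery, which transcribes ribosomal RNA, 2 were higher and 5 lower in PBS-treated mice (median −0.21), and 2 higher and 3 lower in treated mice (median −0.03). The 2 that were higher in both, Polr1c and Polr1d (0.70 in PBS-treated mice), are subunits that RNA polymerase III shares, and the transcription factor Ubtf was among the lower ones (−0.24 and −0.18).

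The list of growth signalling to the ribosome had 18 genes, of which 4 were higher and 5 lower in PBS-treated, and 4 higher and 4 lower in treated mice, shares near those of all tested genes. Its members are given as single genes. Eef2k, the kinase that inhibits Eef2, fell by 0.95 and 0.75 on the log2 scale (edgeR adjusted p = 1.97e-07 and 1.13e-06), and Rps6ka1, one of the kinases left out by the gene rule, fell by 0.87 and 0.72. Eif4ebp1, the cap-binding inhibitor under mTOR control, rose by 0.53 and 0.41, and Larp1, which binds oligopyrimidine mRNAs, by 0.19 and 0.36. Mtor itself was not called, at 0.03 and −0.05. Of 13 other genes known for an oligopyrimidine start, 8 were higher and 0 lower in each genotype comparison (medians 0.42 and 0.49), for example Pabpc1, the poly(A)-binding protein, at 0.54 and 0.63. Of 77 mitochondrial ribosomal proteins tested, 23 were higher and 1 lower in PBS-treated (median 0.18) and 28 higher and 1 lower in treated mice (median 0.24). With treatment, 0 genes of these 8 lists were called in either genotype (edgeR, adjusted over all tested genes).

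**Figure D5:**
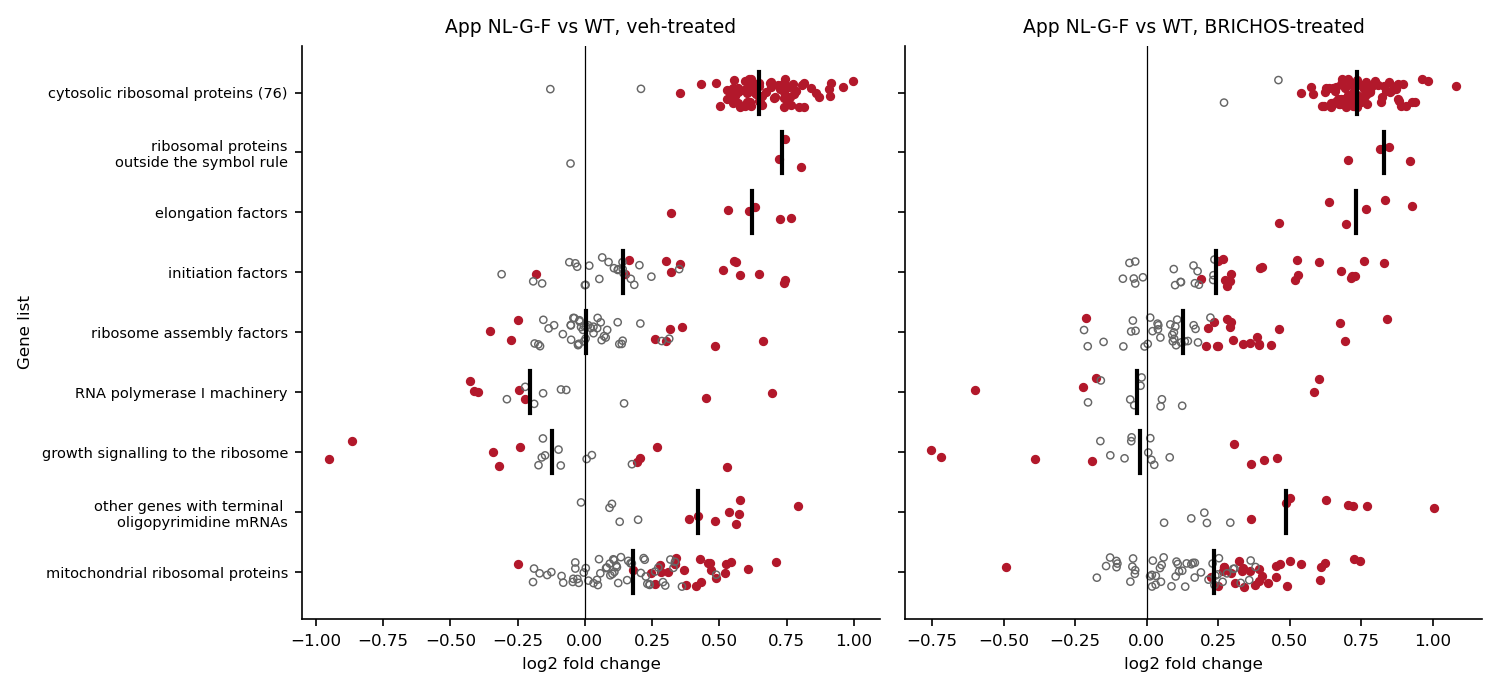
Log2 fold change (x axes) of single genes in the 76 core ribosomal protein genes and the 8 lists of the translation machinery (y axis), App NL-G-F against WT, for PBS-treated (left) and treated mice (right). Filled red points have an adjusted p under 0.05 and black bars are medians, which are 0.62 and 0.73 for elongation factors, 0.00 and 0.13 for ribosome assembly factors and −0.21 and −0.03 for the RNA polymerase I machinery.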

How the data were processed

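RNA-sequencing counts of CD11b-positive cells of the cerebral cortex from 12 mice, 3 per group, were analysed. The authors trimmed reads with Cutadapt, aligned them to GRCm38 with STAR (2.6.1d in the submitters' processing notes) and deposited raw counts per gene from featureCounts 1.5.1 without normalization. Libraries were assigned to groups by their titles. Their settings for strand and for reads matching several genes are not given in the sources used here, and copies and overlapping genes are uncertain for that reason.

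Symbols, mRNA lengths and overlaps were taken from the GENCODE annotation of GRCm38 (55227 of 55487 genes matched), and start windows from RefSeq. The mRNA length is that of the principal transcript of median length. The filterByExpr filter of edgeR (minimum count 10) left 15425 genes. TMM factors were computed, and all 12 libraries were fitted together with group means, and contrasts were tested with glmQLFTest (R 4.3.3, edgeR 4.0.16, limma 3.58.1). The SE of an edgeR log2 fold change was taken as its absolute value divided by the square root of the F statistic of that test. p-values were adjusted over the 15425 genes by the Benjamini-Hochberg method. Log2 CPM used a prior count of 2. DESeq2 1.42.0 served as an alternative. Python 3.11.15, pandas 2.3.3 and matplotlib 3.10.9 were used for the rest. The scripts for the tests were tested on simulated data.

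The libraries held 12433402 to 17889654 counts, so that 3 counts, taken as the detection floor, are 0.168 to 0.241 CPM. Floors cover counting error only. The members and the gene lists were chosen with earlier results of these data known. Genes named are those with a fixed role (stalk, Rps6, Rps3, Rps19, Rpl3, Rpl5, Rpl10, Rpl11, Rpl13a, Rpl38), paralogs with their parents, Rps19bp1, per contrast the 4 largest rises and 4 largest falls or smallest rises among those called or, with fewer than 4 called, the 4 lowest p, the 3 highest and 3 lowest levels per kb, the genes next to the count minimum, and Rpsa, Fau and Rack1. Some genes that this rule takes are not reported here. Rps10, Rpl24, Rps29 and the genes of the lists of translation and signalling were named after their values had been seen.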

Additional observations from a re-analysis of the deposited data

How the results depend on the processing

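The counts called and the medians of the 85 genes kept their direction and size in both genotype comparisons with DESeq2's size factors or Wald test with all libraries, upper-quartile factors, TMM factors computed without these genes, a stricter filter, and the fit of the compared groups only. With total counts alone as scaling the medians were 0.45 in PBS-treated and 0.45 in treated mice, while the median of all genes moved to −0.21 and −0.31, and 1 gene was called lower in treated mice. Relative to genes of like mRNA length the median in PBS-treated mice was 0.46. With the astrocyte marker score as a covariate 11 genes were higher and 0 lower in PBS-treated mice, and 24 and 0 with the replicate block added. The single lower call there became 0 with DESeq2 on the compared groups only and without a filter, and was 0 to 1 when single libraries were left out. An absolute log2 fold change of at least 1 left 0 higher and 0 lower in PBS-treated and 2 higher in treated mice. At an unadjusted p under 0.05, treatment had 2 higher in App NL-G-F, 1 higher and 2 lower in WT mice, and the difference between the genotypes 2 higher. Of the comparisons of single named genes with their value under another setting, 994 kept their call and 50 lost it, 36 of these with the astrocyte score. The 2 added settings, chosen after seeing the data, read the genes against those of like level or GC content, with medians of 0.61 and 0.65 in PBS-treated mice.

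Correlations between the deviations of libraries with equal replicate numbers ranged from −0.01 to 0.23 and were not all above 0.1 in any comparison. Values this weak cannot decide whether such libraries were paired. Replicate 2 had 82, 77, 81 and 83 of the 85 genes above the group mean in PBS-treated WT, treated WT, PBS-treated App NL-G-F and treated App NL-G-F mice. For replicate 3 the numbers were 6, 82, 5 and 4. A block for the replicate number lowered the median SE in PBS-treated mice from 0.113 to 0.0927. The fit with the replicate number as a block called 76 higher and 1 lower in PBS-treated and 78 higher and 0 lower in treated mice, and 0 with treatment. Leaving out single libraries gave medians of 0.58 to 0.71 in PBS-treated and 0.61 to 0.80 in treated mice, and 74 to 76 and 77 to 79 higher calls. With 3 mice a group, treatment effects near the median SE of 0.112 could not be shown.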

Other observations

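The transcripts encoded in the mitochondrial genome went the other way from the ribosomal protein genes. They took 1.62% to 1.88% of the counts in PBS-treated WT, 1.86% to 2.06% in treated WT, 1.10% to 1.21% in PBS-treated App NL-G-F and 1.08% to 1.20% in treated App NL-G-F libraries, so that the genotypes did not overlap. Pseudogenes with a ribosomal protein symbol, 292 in the annotation, took 0.0095% ± 0.0009 (SD, n = 3) of the counts in PBS-treated WT and 0.0117% ± 0.0009 in App NL-G-F mice given PBS, against 2.15% ± 0.122 and 2.96% ± 0.293 for the 85 genes, so that few of the reads were placed on these copies.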
